A study of Mus musculus with 4 samples.

Results

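The transcripts described here are 10 genes that mark astrocytes, of 53379 genes in the deposited table, chosen by name: the water channel Aqp4, the glutamate transporters Slc1a2 (GLT-1) and Slc1a3 (GLAST), the connexins Gja1 (Cx43) and Gjb6 (Cx30), the intermediate filament Gfap, the calcium-binding protein S100b, the folate enzyme Aldh1l1, the neutral amino acid transporter Slc7a10 (Asc-1) and the glycolytic enzyme Aldoc. They were measured in RNA that came down with an anti-Cpeb4 antibody (2 libraries) and in RNA that came down with control IgG (2 libraries). Every lysate came from wild-type CD1 mice at P7/P8, with no other allele or agent named in the labels, and from their ventricular-subventricular zone (V-SVZ), where new neurons arise beside the lateral ventricles. The 2 experiments each gave 1 Cpeb4 and 1 IgG library, and the labels do not say whether they used separate animals. The p-values therefore reflect only the variation among these 4 libraries, which may be technical.

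Astrocytes are glia that take up synaptic glutamate and potassium, move water at their endfeet on blood vessels, and are joined to each other by gap junctions. In the postnatal V-SVZ the neural stem cells descend from radial glia and share several of these transcripts with astrocytes, among them Gfap, Slc1a3 and Aldoc. Cpeb4 belongs to the cytoplasmic polyadenylation element-binding proteins, which bind sequence elements in the 3′ untranslated regions of mRNAs and act on poly(A) tail length and translation. A higher level in the Cpeb4 precipitate than in the IgG precipitate is a level relative to other transcripts, at a given scaling of the libraries. It does not by itself measure recovery with the antibody beyond nonspecific carry-over. The comparison is of antibodies, not of tissues. In lysates of whole tissue, a level does not separate the number of cells that held a transcript from the RNA in each. No input RNA was analysed here.

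The libraries held 22486721 to 35037171 reads on genes, as read back from step sizes in the FPKM columns. FPKM here are fragments per kilobase, which the authors scaled for depth. All 10 genes were detected in every library, at 3.33 to 500 FPKM and 190 to 63781 reads, so none of the astrocyte markers was absent. The Cpeb4 libraries summed to 1160 and 1242 FPKM over the 10 genes, against 752 and 714 FPKM in the IgG libraries. Neuroblast and neural stem cell markers, which define the V-SVZ, were present too: 9 neuroblast markers summed to 749 and 795 FPKM in the Cpeb4 libraries and to 533 and 524 FPKM in the IgG libraries. The 12 neural stem cell and radial glia markers summed to 824 and 964 FPKM in Cpeb4 and to 526 and 496 FPKM in IgG libraries. The astrocyte sum moved together with those of both lists, and their part in it was not tested. This was not particular to these lists. With the authors' scaling the oligodendrocyte lineage (496 and 466 FPKM in Cpeb4, 334 and 324 FPKM in IgG), neuron, microglia and endothelial and mural sums were also higher in Cpeb4. The microglia and the endothelial and mural lists each held 1 gene called higher, beside 2 and 1 called lower. These were P2ry12 (54.5 and 66.5 FPKM in Cpeb4, 26.4 and 23.7 FPKM in IgG) and Rgs5 (34.5 and 44.1 FPKM in Cpeb4, 19.3 and 19.7 FPKM in IgG), a large part of each sum. The ependymal sum was lower.

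Of the 10 astrocyte transcripts, 6 were higher in the Cpeb4 precipitates (Aqp4, Slc1a3, Slc1a2, Gja1, Gjb6 and S100b), 1 was lower (Slc7a10) and 3 were not called (Gfap, Aldoc and Aldh1l1). The fold changes spanned a log2 of 2.10 for Aqp4 to -0.81 for Slc7a10, with a median of 0.53 over the 10 genes and 0.19 over all 15745 genes tested. Calls were made with limma on log2(FPKM + 1) with experiment as a block, at a Benjamini-Hochberg adjusted p under 0.05 over all tested genes, and fold changes are on that scale, which understates those of low genes. The same test called 38.8% of all tested genes higher and 11.6% lower. The FPKM of the Cpeb4 and IgG libraries did not overlap for 9 of the 10 genes, a separation that 75.9% of all tested genes also had.

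**Figure D1:**
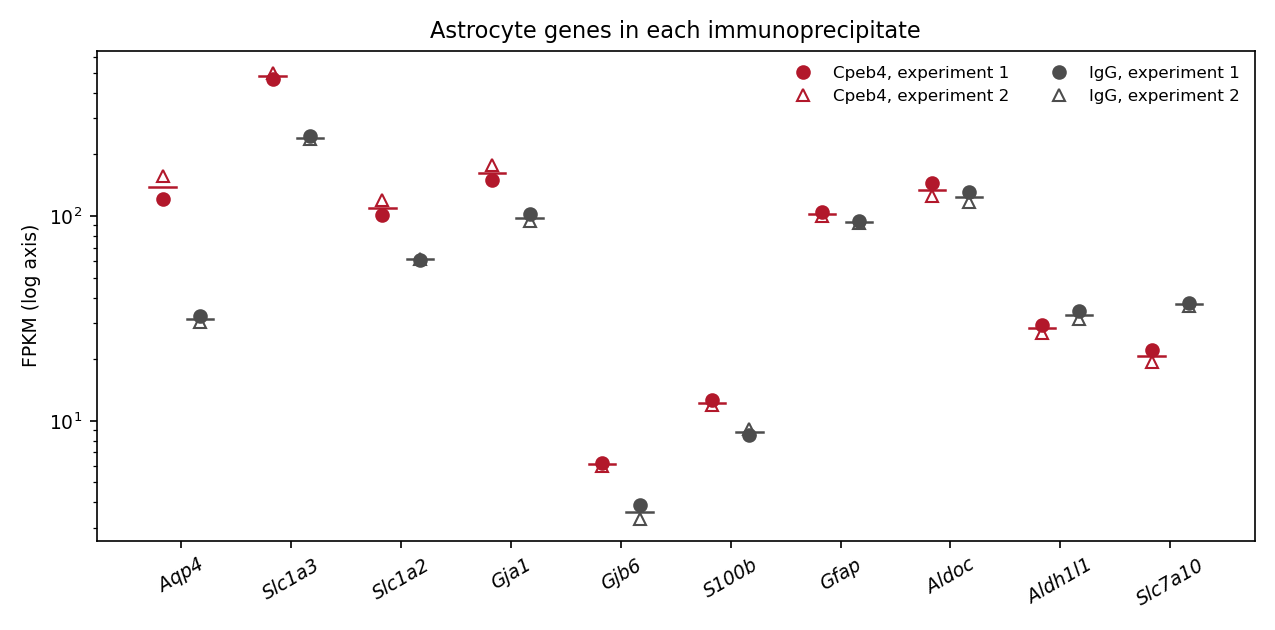
FPKM (log axis) of the 10 genes in each library, in order of fold change, with Cpeb4 in red left of IgG in grey, circles for experiment 1, triangles for experiment 2 and bars at the mean of 2 libraries. Aqp4 lies at 122 and 157 FPKM in the Cpeb4 libraries, well above 32.4 and 30.4 FPKM in the IgG libraries, while the points of Gfap and Aldoc lie close together.

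The water channel transcript stood furthest apart. Aqp4 was at 122 and 157 FPKM in the Cpeb4 precipitates of experiments 1 and 2, against 32.4 and 30.4 FPKM in the IgG precipitates. Both Cpeb4 values lay above both IgG values, and the Cpeb4 libraries differed more from each other than the IgG libraries did. Aqp4 was 4.29-fold higher (log2 2.10, 95% interval 1.81 to 2.40, limma adjusted p = 4.4e-08), at a log2 difference of 1.88 in experiment 1 and 2.33 in experiment 2. Of all tested genes, 0.133% had a larger fold change. Aqp4 was called higher with each of 5 ways of scaling the libraries, at log2 1.60 to 2.10. Its locus overlaps an annotated long noncoding RNA, A830021F12Rik, and reads from the shared stretch cannot be assigned because the cDNA was not marked for strand.

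Aqp4 protein is held at astrocyte endfeet by the dystrophin-associated complex. Of the genes of that complex, Dag1, which encodes dystroglycan, was higher at 76.9 ± 3.48 FPKM in Cpeb4 and 36.3 ± 0.72 FPKM in IgG precipitates (SD, n = 2 each; log2 1.06, limma adjusted p = 3.51e-06), and with all 5 scalings. Dtna, encoding dystrobrevin alpha, was higher with the authors' scaling alone among the 5 (log2 0.31, limma adjusted p = 0.044). Dmd, the dystrophin gene, had a log2 fold change of 0.32 (limma adjusted p = 0.065) and its paralog Utrn one of 0.02 (limma adjusted p = 0.916), and neither was called. Utrn was called lower with 2 of the 5 scalings. Among other aquaporins, Aqp9, a glycerol-conducting channel, was higher at log2 0.63 (limma adjusted p = 0.00233), a call held with 2 of the 5 scalings. Aqp11 had a log2 fold change of 0.26 and was not called, and Aqp1 was below the level needed for the test.

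Both glial glutamate transporters were higher. Slc1a3 (chromosome 15: 8634124 to 8710807, GRCm38) was the most abundant of the 10 transcripts per length, at 468 and 500 FPKM in Cpeb4 precipitates and 246 and 238 FPKM in IgG precipitates. Its fold change was a log2 of 0.997 (95% interval 0.68 to 1.32, limma adjusted p = 4.68e-05), and it was called higher with all 5 scalings, at log2 0.48 to 0.997. Slc1a2 (chromosome 2: 102658239 to 102790784) was at 101 and 119 FPKM in Cpeb4 and at 61.0 and 61.9 FPKM in IgG precipitates. In each of these genes the Cpeb4 and IgG values were separate. The fold change of Slc1a2 was a log2 of 0.83 (95% interval 0.55 to 1.10, limma adjusted p = 6.68e-05), but it missed the threshold when read totals set the scale (log2 0.32, limma adjusted p = 0.0537).

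A ratio of 2 transcripts within a library does not depend on how libraries are scaled. Slc1a2 stood at 0.215 and 0.239 of the Slc1a3 level in Cpeb4 precipitates and at 0.248 and 0.26 in IgG precipitates, a log2 difference of -0.16. With 2 libraries against 2, the smallest two-sided p that an exact permutation test can give is 0.333, which this ratio reached. The Slc1a2 locus overlaps the noncoding Gm13872, at 0.60 and 0.82 FPKM in Cpeb4 and 1.79 and 1.81 FPKM in IgG precipitates, and LOC115489466.

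The other members of the transporter family were lower in level. Slc1a1 (EAAC1), the glutamate transporter of neurons, was higher in the Cpeb4 precipitates at log2 0.55 (limma adjusted p = 0.00203), and the neutral amino acid transporter Slc1a4 (ASCT1) at log2 0.37 (limma adjusted p = 0.0183). Each of these calls held with the authors' scaling and with none of the other 4. Slc1a5 had a log2 fold change of -0.09 and Slc1a6 one of -0.15, and neither was called with the authors' scaling. Of the 5 scalings, 1 called Slc1a5 lower and 3 called Slc1a6 lower.

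The connexins of astrocyte gap junctions had fold changes of similar size at very different levels. Gja1 (chromosome 10: 56377300 to 56390419) was at 150 and 177 FPKM in Cpeb4 precipitates and 102 and 94.1 FPKM in IgG precipitates, a log2 fold change of 0.73 (95% interval 0.43 to 1.02, limma adjusted p = 0.000411). Gjb6 (chromosome 14: 57123301 to 57133611) was at 6.22 and 6.01 FPKM in Cpeb4 and 3.88 and 3.33 FPKM in IgG precipitates, on 190 to 402 reads per library, a log2 fold change of 0.63 (95% interval 0.35 to 0.91, limma adjusted p = 0.000905). Neither gene's groups overlapped. Gja1 stood at 24.1 and 29.4 times Gjb6 in Cpeb4 precipitates and at 26.2 and 28.3 times in IgG precipitates (log2 difference -0.04), and here the groups overlapped. Both calls were lost with read totals (log2 0.21 for each, limma adjusted p = 0.211 for Gja1 and 0.216 for Gjb6) and with the upper quartile (limma adjusted p = 0.0644 and 0.0847).

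Of 7 other connexins, 6 were tested. Gjb2 (Cx26), a further astrocyte connexin, was at 1.56 and 1.74 FPKM in Cpeb4 and 0.43 and 0.475 FPKM in IgG precipitates. It passed the filter on low values through the Cpeb4 libraries alone and had to differ to be tested at all, so its call is not counted. Of the other 5, 3 were higher and 0 lower, where 38.8% of all tested genes were higher and 11.6% lower. Gjc1 (Cx45) was at 14.6 ± 0.067 FPKM in Cpeb4 and 7.09 ± 0.10 FPKM in IgG precipitates (SD, n = 2 each; log2 0.94, limma adjusted p = 1.01e-05). The neuronal Gjd2 (Cx36) was higher at log2 0.78 and the glial Gjc3 at log2 0.66 (limma adjusted p = 0.000132 and 0.000552). Gjc1 and Gjd2 were higher with all 5 scalings and Gjc3 with 3.

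The filament gene Gfap and the enzyme genes Aldoc and Aldh1l1 were not called with the authors' scaling. Gfap (chromosome 11: 102887336 to 102897200), the intermediate filament protein by which astrocytes are usually stained, was at 105 and 100 FPKM in Cpeb4 precipitates and 95.02 and 92.4 FPKM in IgG precipitates. Its groups did not overlap, but the log2 fold change was 0.13 (95% interval -0.15 to 0.40, limma adjusted p = 0.439). Each other scaling turned the sign of Gfap, to log2 values of -0.38 to -0.14, and with read totals it was called lower (limma adjusted p = 0.0191).

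Of 5 other filament genes, 3 were higher and 1 lower, where 38.8% of all tested genes were higher and 11.6% lower. Ina, the neuronal alpha-internexin, was higher at log2 1.32 (limma adjusted p = 3.59e-07) and the neurofilament gene Nefl at log2 0.53 (limma adjusted p = 0.00469). Vim, the vimentin gene of immature astrocytes and radial glia, was at 19.6 ± 0.064 FPKM in Cpeb4 and 14.2 ± 0.34 FPKM in IgG precipitates (log2 0.44, limma adjusted p = 0.00614). Nes was lower at log2 -0.40 (limma adjusted p = 0.0197), and Synm, the synemin gene, had a log2 fold change of 0.08 and was not called (limma adjusted p = 0.666). With all 5 scalings Ina was higher and Nes lower, whereas the calls of Vim and Nefl held with the authors' scaling alone. The authors' scaling gave the highest fold changes of the 5, so Nes, lower with it, was bound to be lower with the others.

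S100b (chromosome 10: 76253836 to 76261319), a calcium-binding protein of astrocytes and of ependymal cells, was at 12.6 and 11.98 FPKM in Cpeb4 precipitates and 8.57 and 9.07 FPKM in IgG precipitates. The groups were separate and S100b was called higher (log2 0.44, 95% interval 0.17 to 0.70, limma adjusted p = 0.00815). The call was lost with each of the other 4 scalings (log2 -0.04 to 0.19, limma adjusted p between 0.211 and 0.84), when low genes were left in the test (limma adjusted p = 0.0704, with 8.35% of all genes higher and 1.87% lower there), without IgG replicate 1 (limma adjusted p = 0.127) and without IgG replicate 2 (limma adjusted p = 0.0778). Of 6 other S100 genes, 0 were higher and 1 was lower (38.8% and 11.6% of all tested genes). The lower gene was S100a1, at 32.3 ± 4.07 FPKM in Cpeb4 and 48.6 ± 1.24 FPKM in IgG precipitates (log2 -0.58, limma adjusted p = 0.00109). It was lower with all 5 scalings, which followed from its call with the authors' scaling, the highest of the 5.

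Aldh1l1 (chromosome 6: 90550768 to 90599171), the cytosolic 10-formyltetrahydrofolate dehydrogenase, was at 29.5 and 27.0 FPKM in Cpeb4 precipitates and 34.2 and 31.5 FPKM in IgG precipitates. The Cpeb4 values lay below the IgG values, and the log2 fold change was -0.21 (95% interval -0.47 to 0.05, limma adjusted p = 0.16). With each of the other 4 scalings Aldh1l1 was called lower, at log2 -0.71 to -0.47. Without Cpeb4 replicate 1 its log2 fold change was -0.28, in a fit with no block and a single Cpeb4 library. Its locus overlaps the noncoding Gm15756, which was at 0 to 0.055 FPKM. Among 6 other genes of folate metabolism, the mitochondrial Mthfd2 (log2 0.64, limma adjusted p = 0.00101) and the cytosolic Shmt1 (log2 0.57, limma adjusted p = 0.00143) were higher and 0 were lower. These 2 of 6 (33.3%) lay below the 38.8% of all tested genes that were higher. The call of Mthfd2 held with 3 of the 5 scalings and that of Shmt1 with 2. The mitochondrial paralog Aldh1l2 had a log2 fold change of 0.25 and was not called.

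Aldoc (chromosome 11: 78323073 to 78327781), the brain isoform of aldolase, was at 144 and 125 FPKM in Cpeb4 precipitates and 131 and 117 FPKM in IgG precipitates. It was the one gene of the 10 whose groups overlapped, with a log2 fold change of 0.11 (95% interval -0.17 to 0.40, limma adjusted p = 0.504). The other scalings turned its sign, and Aldoc was called lower with read totals (log2 -0.40, limma adjusted p = 0.0164) and with the upper quartile (log2 -0.32, limma adjusted p = 0.0468). The ubiquitous paralog Aldoa, whose reads can be shared with processed pseudogenes and with a second record of the same symbol, was at 133 ± 15.4 FPKM in Cpeb4 and 132 ± 7.83 FPKM in IgG precipitates (log2 0.01, limma adjusted p = 0.946). Aldoa too was called lower with 2 of the 5 scalings.

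Slc7a10 was the one transcript of the 10 called lower. It encodes the light chain of a transporter that carries D-serine, glycine and other small neutral amino acids. Slc7a10 (chromosome 7: 35186095 to 35201116) was at 22.1 and 19.3 FPKM in Cpeb4 precipitates, below 37.7 and 36.5 FPKM in IgG precipitates. It was 1.76-fold lower (log2 -0.81, 95% interval -1.07 to -0.55, limma adjusted p = 4.27e-05), at -0.74 in experiment 1 and -0.88 in experiment 2. Of all tested genes, 3.13% had a smaller fold change, and Slc7a10 was called lower with all 5 scalings, at log2 -1.31 to -0.81. The authors' scaling gave the highest value of the 5, so a gene called lower with it was bound to be lower with the others.

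The annotated Slc7a10 locus overlaps the protein-coding gene Lrp3 by 239 bases. Lrp3 was at 71.8 and 60.9 FPKM in Cpeb4 and 54.2 and 54.3 FPKM in IgG precipitates. With the authors' scaling its values thus moved the other way, and they were not examined with the other scalings. The part of the overlap in the Slc7a10 value was not tested. Slc3a2, the heavy chain (4F2hc) that pairs with Slc7a10, had a log2 fold change of 0.26 and was not called (limma adjusted p = 0.105). Among related light chains, the cystine-glutamate exchanger Slc7a11 (xCT), an astrocyte transporter, was higher at 4.75 ± 1.19 FPKM in Cpeb4 and 2.41 ± 0.058 FPKM in IgG precipitates (SD, n = 2 each; log2 0.74, limma adjusted p = 0.000575), with all 5 scalings. Slc7a5 (LAT1) had a log2 fold change of -0.09 and Slc7a8 (LAT2) one of 0.01, and neither was called with the authors' scaling. Of the 5 scalings, 4 called Slc7a5 lower and 2 called Slc7a8 lower.

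**Figure D2:**
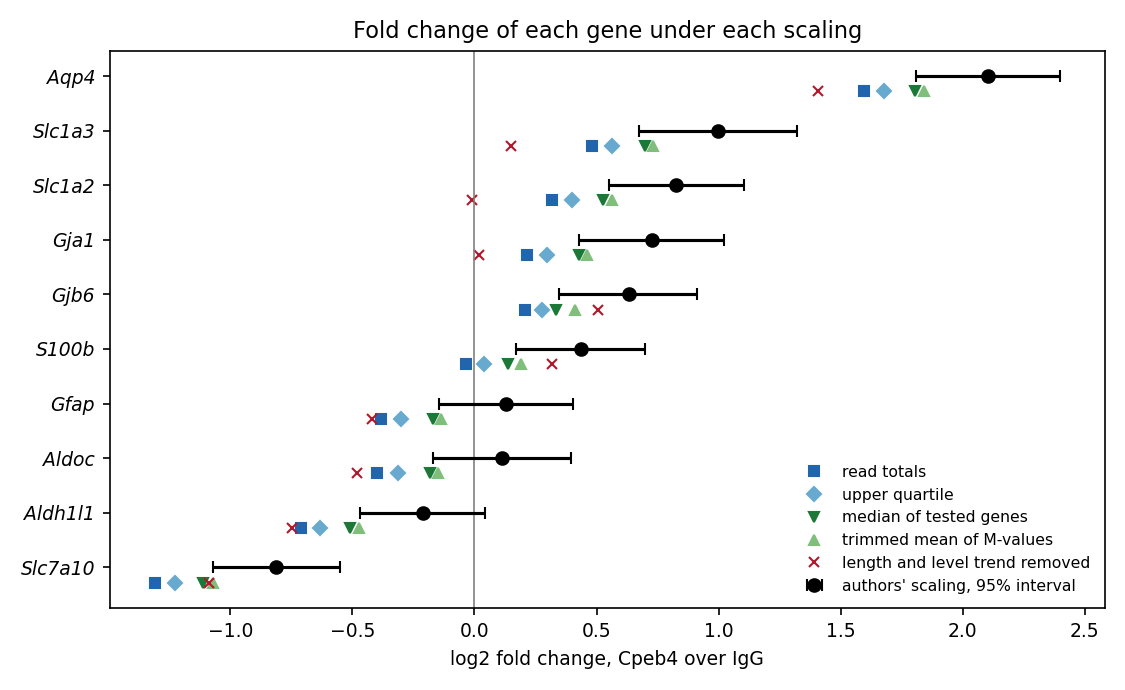
Log2 fold change of Cpeb4 over IgG for the 10 genes, with the authors' scaling (black, 95% interval from limma), 4 other scalings and a fit with a trend on gene length and level removed. Aqp4 stays above 1 and Slc7a10 below 0 at every setting drawn, while Gfap, Aldoc and S100b cross 0 and Slc1a2 reaches -0.012 with the trend removed.

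The number of calls among the 10 genes followed the scaling. With read totals 2 were higher (Aqp4 and Slc1a3) and 4 lower (Slc7a10, Aldh1l1, Gfap and Aldoc), where 17.5% of all tested genes were higher and 42.4% lower. The upper quartile gave 3 higher and 3 lower (20.6% and 37.2% of all tested genes). Trimmed mean of M-values gave 5 higher and 2 lower (25.8% and 24.0%), and centring the medians gave the same counts (22.9% and 30.8%). The median log2 fold change of all tested genes was -0.24 with read totals, -0.17 with the upper quartile, -0.11 with the centred medians and -0.03 with the trimmed mean. The median of the 10 genes was 0.09, 0.16, 0.23 and 0.30 at these settings. A scaling shifts all genes nearly alike, so the gap between these medians was bound to stay about the same. The authors' scaling gave the highest median of all tested genes among the 5 (0.19), so genes lower with it were bound to be lower with the others. In the authors' deposited table, which used DESeq2, 5 of the 10 genes passed an adjusted p of 0.05 upward and 1 downward, against 21.7% and 4.93% of the genes with an adjusted p there. S100b did not pass in the authors' deposited table, at a log2 fold change of 0.47 and an adjusted p of 0.112.

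Proportions among the 10 transcripts within a library do not depend on the scaling. Set against Gfap, Aqp4 stood at 1.16 and 1.56 times Gfap in Cpeb4 precipitates and at 0.341 and 0.329 times in IgG precipitates. Slc1a3 stood at 4.48 and 4.98 times Gfap in Cpeb4 precipitates and 2.59 and 2.57 times in IgG precipitates. Slc7a10 stood at 0.212 and 0.193 of Gfap in Cpeb4 and at 0.396 and 0.395 in IgG precipitates. For each of these ratios the groups were separate, at the smallest exact two-sided permutation p of 0.333. Aldoc stood at 1.38 and 1.24 times Gfap in Cpeb4 precipitates and at 1.38 and 1.27 times in IgG precipitates, which overlapped (log2 difference -0.01, exact permutation p = 0.667). The widest ratio was that of Aqp4 to Slc7a10, at 5.49 and 8.1 in Cpeb4 precipitates and 0.861 and 0.832 in IgG precipitates, a pair chosen after its values were seen.

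The order of levels per length differed between the precipitates. Aqp4 moved furthest, Gja1 lay above Aldoc in Cpeb4 and below it in IgG precipitates, and Aldh1l1 lay above Slc7a10 in Cpeb4 and below it in IgG precipitates, with separate values for these last 2 pairs in each precipitate. Slc1a2 and Gfap changed places by their means. In Cpeb4 precipitates the mean FPKM ran from Slc1a3 (484 ± 22.1) through Gja1 (163 ± 19.0), Aqp4 (139 ± 24.8), Aldoc (135 ± 13.9), Slc1a2 (110 ± 13.1) and Gfap (102.5 ± 3.09) to Aldh1l1 (28.2 ± 1.81), Slc7a10 (20.7 ± 1.97), S100b (12.3 ± 0.41) and Gjb6 (6.11 ± 0.15, SD, n = 2 each). Among neighbours in that order the values overlapped for Gja1 and Aqp4, for Aqp4 and Aldoc, and for Slc1a2 and Gfap. In IgG precipitates Slc1a3 (242 ± 5.93), Aldoc (124 ± 10), Gja1 (98.0 ± 5.42), Gfap (93.7 ± 1.88) and Slc1a2 (61.4 ± 0.64) came first. Slc7a10 (37.1 ± 0.81), Aldh1l1 (32.9 ± 1.95), Aqp4 (31.4 ± 1.46), S100b (8.82 ± 0.36) and Gjb6 (3.60 ± 0.39) followed. The values of Gja1 and Gfap overlapped in IgG precipitates, as did those of Aldh1l1 and Aqp4.

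**Figure D3:**
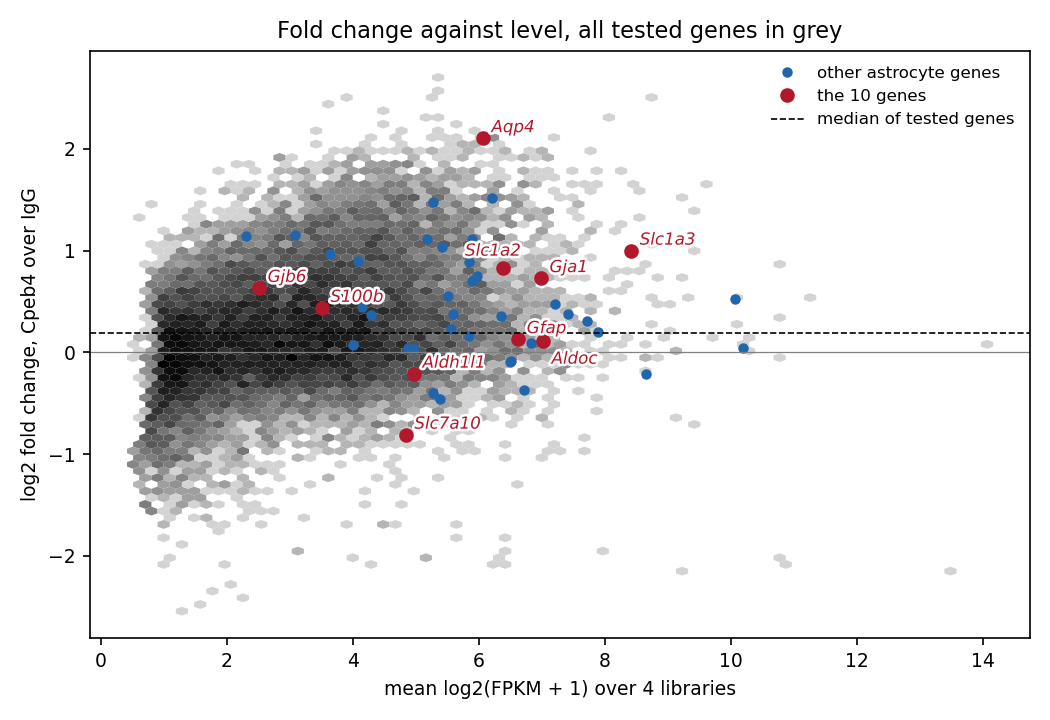
Log2 fold change of Cpeb4 over IgG against mean log2(FPKM + 1) over 4 libraries, with all 15745 tested genes in grey (darker where more genes fall), the 10 genes in red and 35 other astrocyte genes in blue. Aqp4 lies at the upper edge of the grey cloud and Slc7a10 near its lower edge, while Gfap and Aldoc lie near the dashed median of 0.19.

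Fold changes moved with gene length and with level across the table. Over 15633 tested genes with a length, Spearman's rho of the log2 fold change was 0.301 with length and 0.322 with mean level, and over the 10 genes 0.624 and 0.285, given as descriptions across genes that share the same 4 libraries. Relative to the median tested gene, the length implied by the deposited values was 3.8 for Slc1a2, 1.66 for Aqp4, 1.45 for Slc1a3, 1.37 for Aldh1l1 and 1.27 for Gja1. It was 0.912 for Aldoc, 0.867 for Gfap, 0.689 for Gjb6, 0.639 for Slc7a10 and 0.486 for S100b. With a trend on length and level removed, Slc1a2 (log2 -0.01, limma adjusted p = 0.946), Slc1a3 (log2 0.15, limma adjusted p = 0.441) and Gja1 (log2 0.02, limma adjusted p = 0.921) lost their calls. Aqp4 stayed higher at log2 1.41 (limma adjusted p = 3.73e-07), as did Gjb6 at 0.50 and S100b at 0.32, and Slc7a10 stayed lower at -1.09. Gfap, Aldoc and Aldh1l1 were called lower in that fit, at log2 -0.42, -0.48 and -0.75. It called 24.9% of all tested genes higher and 24.1% lower, and the median log2 fold change was 0.003 over the 10 genes and -0.02 over all genes in it.

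A wider set of 35 other astrocyte genes was described in the same way. Of these, 20 were higher (57.1%), 3 lower and 12 not called, with a median log2 fold change of 0.37. Of all tested genes 38.8% were higher and 11.6% lower, with a median of 0.19. With the trend on length and level removed, 10 of the 35 were higher and 12 lower, where 24.9% of all tested genes were higher and 24.1% lower. Read totals gave the same counts, where 17.5% of all tested genes were higher and 42.4% lower. Of the 20 called higher with the authors' scaling, 10 were higher with all 5 scalings. That share was not counted over all tested genes, where it can be no more than the 17.5% higher with read totals. Nfib and Nfia, transcription factors of gliogenesis, were higher at log2 1.52 for Nfib (limma adjusted p = 1.55e-07) and 1.48 for Nfia (limma adjusted p = 1.5e-07). The thyroid hormone deiodinase Dio2 was higher at log2 1.15, the Bmp antagonist Chrdl1 at 1.15, the tissue factor gene F3 at 1.11, the bicarbonate cotransporter Slc4a4 at 1.11 and the glial transcription factor Sox9 at 1.04. Rorb, Gpc5 and Hepacam, which encodes the adhesion molecule GlialCAM, were higher at 0.97, 0.90 and 0.89, and these 10 genes are the ones that were higher with all 5 scalings.

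The 3 lower genes of that set were the orphan receptor Gpr37l1 (log2 -0.45, limma adjusted p = 0.00749), the neurotensin receptor Ntsr2 (log2 -0.40, limma adjusted p = 0.0123) and the peroxiredoxin Prdx6 (log2 -0.37, limma adjusted p = 0.0268). Each was lower with all 5 scalings, which followed from its call with the authors' scaling, the highest of the 5. The potassium channel Kcnj10 (Kir4.1), which lies with Aqp4 at endfeet, was at 28.9 ± 0.16 FPKM in Cpeb4 and 27.95 ± 0.22 FPKM in IgG precipitates and was not called (log2 0.05, limma adjusted p = 0.781). Mlc1, the membrane partner of GlialCAM, was not called either (log2 0.09, limma adjusted p = 0.585). Kcnj10 and Mlc1 were each called lower with 2 of the 5 scalings. Glul, the glutamine synthetase that acts on the glutamate taken up by astrocytes, was higher with the authors' scaling alone among the 5 (log2 0.56, limma adjusted p = 0.00132).

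**Figure D4:**
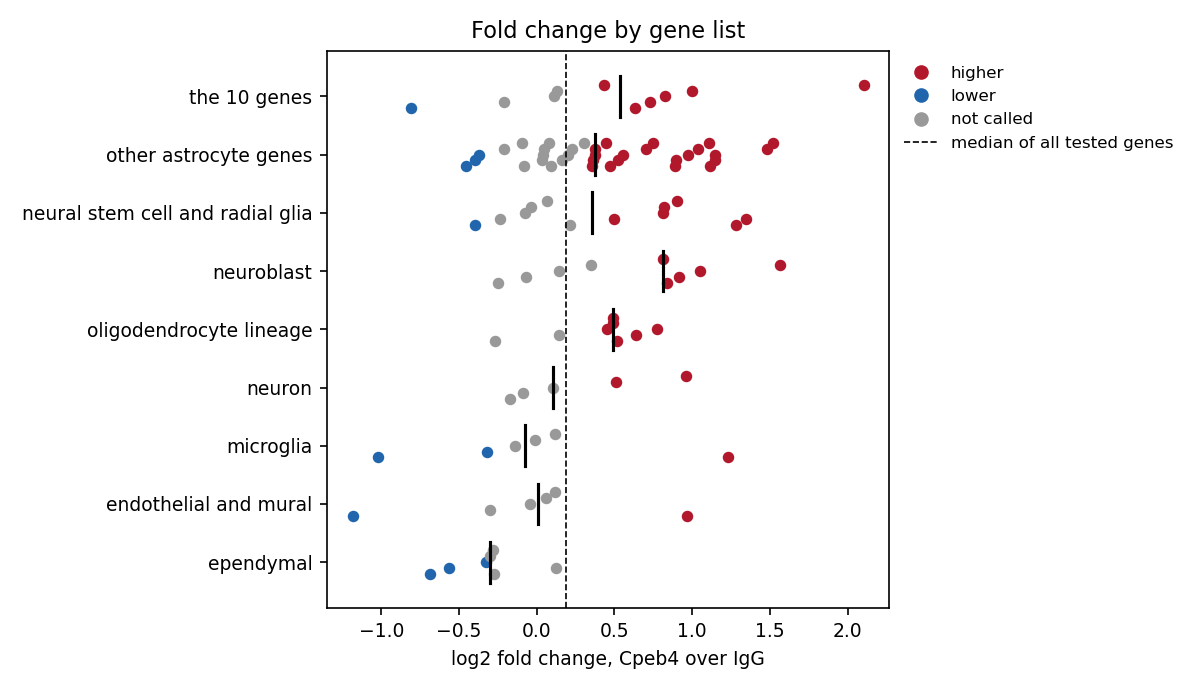
Log2 fold change of Cpeb4 over IgG for each tested gene of 9 lists, coloured by its call with the authors' scaling (red higher, blue lower, grey not called), with the median of each list as a black bar and that of all tested genes as a dashed line at 0.19. The 10 astrocyte genes span -0.81 to 2.10, and the ependymal genes have no red point.

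Markers of the other cell types in the tissue gave these counts with the authors' scaling, at which 38.8% of all tested genes were higher and 11.6% lower. Neural stem cell and radial glia genes had 6 of 12 higher and 1 lower, with Id4 at log2 1.34 and Nes at -0.40, and 5 of the 6 held with all 5 scalings, as did Nes. Among neuroblast genes 5 of 9 were higher and 0 lower, with Dcx at log2 1.56, and 4 of the 5 held with all 5 scalings. For the oligodendrocyte lineage 6 of 8 were higher and 0 lower, with Olig2 at log2 0.77, but 0 of the 6 held with all 5 scalings. For neurons 2 of 5 were higher and 0 lower, with Syt1 at log2 0.96, and 1 of the 2 held with all 5 scalings. Microglia had 1 of 6 higher (P2ry12, log2 1.23) and 2 lower (Cx3cr1 the lowest, log2 -1.02). Endothelial and mural genes had 1 of 6 higher (Rgs5, log2 0.96) and 1 lower (Ly6c1, log2 -1.18). Ependymal genes, which share S100b with astrocytes, had 0 of 7 higher and 3 lower, with Tmem212 at log2 -0.69. The calls in the microglial, vascular and ependymal lists each held with all 5 scalings. For the lower calls, that of Nes included, this followed from the authors' scaling giving the highest fold changes of the 5. The share of all tested genes higher with all 5 scalings was not counted, and can be no more than the 17.5% higher with read totals. The summed level of the ependymal list was 89.6 and 76.8 FPKM in Cpeb4 and 108 and 105 FPKM in IgG precipitates, and its part in the S100b value was not tested.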

How the data were processed

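Per the labels' protocols, immunoprecipitation used the MAGNA RIP kit, cDNA synthesis SMART-Seq v4 and library preparation Nextera XT. The submitters' processing notes name STAR 2.6.0c, HTSeq 0.6.1p2, DESeq2 1.26.0 and mm10, with no role or setting. Per the file headers, the deposited table holds FPKM per library for 53379 genes, and for 30361 genes the authors' mean level (a signal: reads divided by size factors), log2 fold change with its standard error, test score and p-value with adjusted p-value. It held 0 columns of other samples.

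Joining FPKM steps to the mean level returned reads that were whole, within 0.01 read, for 100% of values, and a relative gene length. Reads of low input amplification without molecular identifiers are not independent molecules. Genes reaching 1 FPKM in 2 or more libraries were tested with limma 3.58.1 (R 4.3.3, trended prior, two-sided) on log2(FPKM + 1), for the antibody effect, blocking on experiment. The labels number experiments across antibodies and the table is named for a batch; deviations of same-numbered libraries correlated at 0.00238 across genes. The block left 1 residual degree of freedom, and the prior added 14.6. Replicates were separate libraries (chi-square per degree of freedom: Cpeb4 pair 28.2, IgG pair 6.3). The steps were tested on simulated data.

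The alternatives were read totals, upper quartile, trimmed mean of M-values and median centring as scalings, a pseudocount of 0.1, no filter, a filter of 50 reads, limma-voom on recovered reads, no block, leaving out each library, and removing a loess trend (span 0.5) on length and level. The fits that left out a library also had no block. They held a single library of that antibody, so their spread came from the pair of the other antibody. The genes and lists were chosen with earlier results of these data known. Named were all 10 genes, the tested genes or the called genes of each family list, and the called genes of largest positive and negative log2 fold change in each cell type list. Further genes of the wider astrocyte set, Synm, Lrp3 and the other overlapping genes were named after their values were seen. Some genes of the family lists are not reported here. Coordinates are from RefSeq's GRCm38.p6 annotation.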

Additional observations from a re-analysis of the deposited data

How the results depend on the processing

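Of 140 values (10 genes, 14 alternatives), 109 kept their direction and side of the threshold. With the sign kept, 13 lost their call and 6, all of Aldh1l1, gained one. The other 12 changed sign, and some of these also gained or lost a call. Gfap became lower with read totals and the trend removed, and Aldoc with these and the upper quartile. S100b lost its call with read totals and Slc1a2 with the trend removed. Signs changed for Gfap and Aldoc with read totals (log2 -0.38 and -0.40), upper quartile (-0.30 and -0.32), trimmed mean (-0.14 and -0.15), median centring (-0.17 and -0.18) and the trend removed (-0.42 and -0.48), for S100b with read totals (-0.036) and for Slc1a2 with the trend removed (-0.012). Of the 10 genes, the count higher was 2 with read totals and 3 with the upper quartile or the trend removed, and the count lower 4 with read totals or the trend removed, 3 with the upper quartile and 2 with the trimmed mean or median centring. Without each library in turn, the median log2 fold change was 0.51 to 0.56 over the 10 genes and 0.18 to 0.21 over all tested genes. None of the 10 changed sign in these fits. Of the 35 other astrocyte genes, 10 were higher and 12 lower with read totals and also with the trend removed, 11 and 11 with the upper quartile, 12 and 6 with the trimmed mean or median centring, 13 and 0 with no filter, 12 and 0 without IgG replicate 1 and 13 and 0 without IgG replicate 2; leaving out each library gave 12 to 23 higher and 0 to 4 lower. All tested genes called numbered 4790 with no filter, 5108 without IgG replicate 1 and 4844 without IgG replicate 2, with up to 9031 when a Cpeb4 library was left out. Without an IgG library the spread came from the Cpeb4 pair alone, and the block was dropped too. The part of either in the calls was not tested. With no replicate block the 10 genes again gave 6 higher and 1 lower, and no call among them changed. All tested genes called in that fit numbered 7721 of 15745, and their split by direction was not counted. The cause of the shifts between settings was not tested. Depth limits Gjb6 and S100b most, at 190 to 572 reads per library.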
